A study of Mus musculus with 18 samples.

Results

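H3K36me2, dimethylation of lysine 36 on histone H3, was profiled in mouse epidermis that expressed the H3K36M oncohistone and in control epidermis. The comparison used the 6 H3K36me2 libraries among the 18 of the series, 3 from Krt14-Cre(+) and 3 from Krt14-Cre(-) mice, chosen by antibody and genotype alone. All mice of both groups carried LSL-H3K36M, an H3K36M transgene that stays silent until Cre removes a stop cassette. The Cre-positive mice are called mutant and the Cre-negative mice WT. The WT mice thus lack Cre as well as active H3K36M, and effects of Cre and of H3K36M cannot be told apart. Krt14-Cre is driven by the promoter of keratin 14, a gene of basal keratinocytes, so cells of a suspension that neither express it nor descend from cells that did would keep H3K36M silent. Age, sex and housing are not given in the labels. Regions were the 12908 autosomal SICER2 islands, which are stretches of at least 200 bp with more reads than background, and 730 narrow DiffBind windows of fixed width. DNA was captured by CUT&RUN, in which an antibody guides a nuclease to cut out the marked chromatin.

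H3K36me2 is written mainly by NSD1, NSD2, NSD3 and ASH1L, while SETD2 makes the trimethylated form that builds up toward the 3′ ends of transcribed genes. H3K36me2 covers broad domains between and within genes, recruits the DNA methyltransferase DNMT3A, and hampers the Polycomb enzyme EZH2, which deposits H3K27me3. H3K36M replaces the lysine with methionine and inhibits these writers. In epidermis, basal keratinocytes marked by keratins 5 and 14 divide and then differentiate into cornified cells, with p63, the product of Trp63, as a main regulator.

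Promoters that lay wholly inside an island give a view of the DNA concerned. Of 20085 RefSeq start sites of protein-coding genes, each with 300 bases around it, 332 lay in islands lower in the mutant and 82 in islands higher there. A further 168 lay in uncalled islands. The median number of CG dinucleotides was 5 in the lower, 10 in the higher and 7 in the uncalled group, against 14 among all promoters. At least 15 CG were found in 17.2%, 37.8% and 32.7% of these groups and in 48.1% of all. The letters TATAAA, searched on both strands, stood in 15.4% of promoters in lower islands, 8.54% in higher ones and 12.7% of all. The 200 bases before the start site are given for 3 listed genes with a lower island and 1 with a higher one, to show how CG-poor and CG-richer promoters compare, in lower case with CG in capitals, from RefSeq for GRCm38.p6. Klk5, a protease of skin shedding, is on the plus strand at chr7:43842069-43842268. Sprr1a, a cornified envelope precursor, is on the minus strand at chr3:92485882-92486081. B2m, the light chain of MHC class I, is on the plus strand at chr2:122147487-122147686. Nfix, a hair follicle stem cell factor, is on the minus strand at chr8:84780083-84780282, 1 of 2 start sites in its island.
Klk5: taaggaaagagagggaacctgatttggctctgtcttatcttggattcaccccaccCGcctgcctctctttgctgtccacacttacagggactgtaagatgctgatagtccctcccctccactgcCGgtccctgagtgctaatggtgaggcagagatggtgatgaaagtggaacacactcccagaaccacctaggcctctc
Sprr1a: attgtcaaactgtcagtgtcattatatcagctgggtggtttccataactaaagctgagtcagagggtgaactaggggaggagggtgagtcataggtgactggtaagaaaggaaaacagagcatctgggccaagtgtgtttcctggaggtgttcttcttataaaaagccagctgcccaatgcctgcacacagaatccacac
B2m: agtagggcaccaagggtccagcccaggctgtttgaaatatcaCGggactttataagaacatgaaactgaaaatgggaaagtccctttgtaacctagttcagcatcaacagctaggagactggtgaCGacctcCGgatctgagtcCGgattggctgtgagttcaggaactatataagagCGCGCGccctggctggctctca
Nfix: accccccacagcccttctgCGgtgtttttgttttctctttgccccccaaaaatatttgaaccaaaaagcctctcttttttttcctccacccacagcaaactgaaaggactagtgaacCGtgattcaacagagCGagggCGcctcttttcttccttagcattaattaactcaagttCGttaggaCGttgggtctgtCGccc
Sprr1a had 0 CG in its 300 bases and Klk5 had 5, while B2m had 14 and Nfix 13, and Sprr1a and B2m held TATAAA. The other Nfix start site in that island had 4 CG, fewer than Klk5, so these examples do not stand for lower and higher islands as groups. A match is a description of the letters and not a site. The Sprr1a island held 208 mutant and 340 WT reads, a log2 ratio of -1.04 (95% interval -1.30 to -0.79), and the Klk5 island 72 and 129 reads (-1.17, -1.61 to -0.74). The B2m island held 136 and 196 reads (-0.86, -1.18 to -0.53). The Nfix island held 238 and 157 reads (0.27, -0.03 to 0.57), an interval that includes 0. Of 27 start sites of listed genes inside islands, 2 were in a higher island, both of Nfix.

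Reads of the 3 animals of a genotype stand in 1 pooled column in the island table, 59539924 mutant and 47361190 WT reads in all. The median autosomal island was 5000 bp wide, with 171 reads in the mutant and 167 in WT. No value per animal is given, so the spread between animals is unknown, 1 animal could carry a difference, and every interval below covers counting error of the pools only. PCR copies are not independent molecules. Fewer cells of a type and less H3K36me2 per cell cannot be told apart in these bulk libraries. Of the defining genes of epidermis, Krt5, Krt14 and Trp63 had an island within 5 kb, and Krt1 and Krt10 had none. A chromatin mark does not measure expression, so the label of the tissue was not checked further.

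Most islands were lower in the mutant. By the FDR of the authors' deposited table under 0.05, 7772 of 12908 islands were lower (60.2%) and 2235 higher (17.3%). They covered 49.5 and 10.8 Mb, and 2901 islands passed in neither direction. The median log2 ratio was -0.32 (quartiles -0.54 and 0.10), or 0.804 times the WT level. Summed over all islands, 3221316 mutant reads made up 5.41% of their pool and 2989942 WT reads 6.31% of theirs, a ratio of 0.857 (0.856 to 0.858). The balance rests on scaling to depth. Scaled so that the median island had a log2 ratio of 0, the same test called 3162 lower and 4579 higher, and scaled to the summed island reads 4720 lower and 3936 higher. Directions below are relative to depth, and they shift by 0.32 on the log2 scale relative to the median island.

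Levels in each group are given as a description, since an island is listed when one pool is high and is then sorted by which pool is higher. Lower islands fell from a median of 0.735 RPM per kb in WT to 0.518 in the mutant, and higher islands rose from 0.528 to 0.717, where RPM scales reads to the depth of the pool. Islands called neither way had 0.670 and 0.678. Every island reached at least 0.510 RPM per kb in one of the pools, and 99% reached 0.588, so stretches that are low in both genotypes are not among the islands. The space outside islands averaged at most 0.396 RPM per kb in the mutant and 0.392 in WT. Changes were moderate in size. A log2 ratio of -0.5 or less was found in 3843 islands and one of 0.5 or more in 877, while 141 and 20 reached -1 and 1.

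Gene bodies and the space between genes had different profiles. Only protein-coding genes counted as genes, here and for distances, so noncoding genes and immunoglobulin V segments fall in the space between genes. Outside gene bodies the ratios formed 1 hump, fullest between -0.5 and -0.4 with 869 islands. In gene bodies they formed a pair of humps, with 699 islands between -0.4 and -0.3, a dip to 433 between 0 and 0.1, and 526 between 0.2 and 0.3. In gene bodies 45.0% of 7008 islands were lower and 25.7% higher, with a median of -0.12. Outside them 78.3% of 5900 were lower and 7.34% higher, with a median of -0.47. At a median log2 ratio of 0 the counts were 921 lower and 3484 higher in gene bodies, and 2241 lower and 1095 higher outside, so the contrast between the places kept its direction at both scalings.

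**Figure D1:**
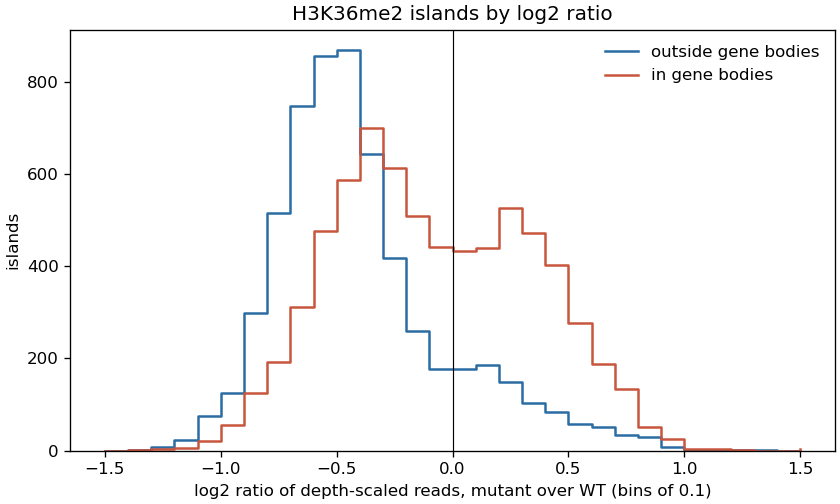
Number of autosomal H3K36me2 islands (vertical axis) by log2 ratio of depth-scaled reads, mutant over WT, in bins of 0.1 (horizontal axis), for 7008 islands in gene bodies and 5900 outside. The islands outside genes pile up at -0.5 to -0.4, while those in genes have a second hump at 0.2 to 0.3.

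The distance from genes mattered little once an island was outside. The median was -0.43 within 10 kb of a gene, -0.47 from there to 50 kb, -0.49 to 100 kb, -0.49 to 200 kb and -0.50 to 500 kb. Beyond 500 kb it was -0.24, where 64 of 169 islands lay in the V region of the immunoglobulin heavy chain. Those 64 had a median of 0.64 and the other 105 of -0.56. Ratios also differed by width. Islands of 2200 to 5000 bp in gene bodies had a median of 0.12, with 37.2% higher and 35.3% lower, and those of 5200 to 10000 bp had -0.24. Outside genes the same widths had -0.51 and -0.47. The trend did not hold at the extremes in gene bodies, with -0.03 at 200 to 1000 bp (45 islands) and 0.02 over 20000 bp (59). Outside genes, islands of 200 to 1000 bp had 0.14 (100) and those of 1200 to 2000 bp 0.25 (162). Narrow islands hold fewer reads, a median of 146 mutant and 118 WT reads in genes at 2200 to 5000 bp, and whether width itself plays a part was not tested.

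The ratio did not change steadily with gene length. Islands in genes of up to 20 kb had a median of -0.15, those in genes of 20 to 50 kb had a median of -0.04 and those in genes of 50 to 100 kb -0.02. The median was -0.09 at 100 to 200 kb, -0.17 at 200 to 500 kb and -0.45 over 500 kb, where 70.7% were lower and 9.75% higher. In blocks of 1 Mb with at least 5 islands, 849 of 984 (86.3%) had fewer depth-scaled mutant than WT island reads. The median of blocks with 0 to 2 genes was -0.41, that of blocks with 6 to 12 genes -0.26 and that of blocks with 25 or more -0.18. Chromosome medians ran from -0.42 on chromosome 13 to -0.18 on chromosome 12, which holds the V region, and no autosome had a median above 0.

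Within genes the ratio rose from the 5′ to the 3′ end. For genes of at least 20 kb with a strand in the RefSeq promoter table, islands were sorted by the position of their centre into 5 equal bins. The median log2 ratio was -0.18 in bin 1, -0.14 in bin 2, -0.09 in bin 3, -0.01 in bin 4 and 0.02 in bin 5. The share of lower islands went from 48.7% to 38.8%, and that of higher islands from 18.8% to 35.5%. Levels moved in opposite ways, since the median WT level went from 0.679 to 0.645 RPM per kb along the gene and the mutant level from 0.612 to 0.644. Relative to the median island, every bin lies 0.32 higher, and the change along the gene stays the same.

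The gradient was seen in each length class. In genes of 20 to 100 kb the median went from -0.11 (514 islands) to 0.17 (278), in genes of 100 to 300 kb from -0.20 (413) to 0.05 (333), and in genes over 300 kb from -0.38 (168) to -0.23 (190). It held with islands that overlap 1 gene only, for which the last bin exceeded the first by 0.21. Within single genes, 617 had islands on both sides of the midpoint, and the mean log2 ratio was higher on the 3′ side in 391 (63.4%) and on the 5′ side in 226. The median difference was 0.12 with quartiles of -0.13 and 0.36, so many genes did not follow it. The flanks differed too. Islands up to 10 kb upstream of the nearest gene had a median of -0.45 (588 islands, 4.08% higher) and those up to 10 kb downstream -0.36 (306 islands, 12.1% higher). Neighbouring islands are not independent and the pools give no test over animals, so these values are descriptions.

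**Figure D2:**
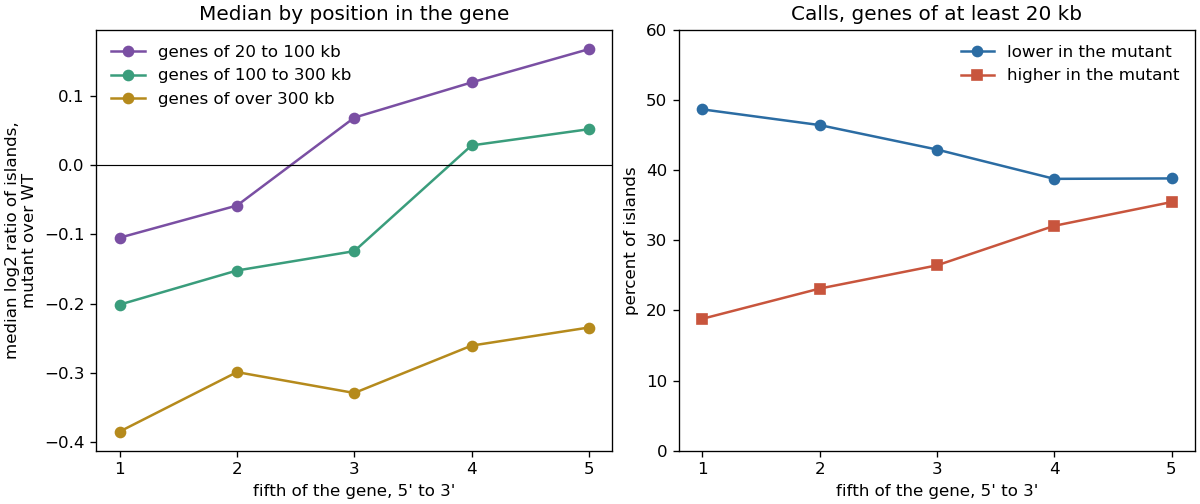
Left, median log2 ratio of islands, mutant over WT, by position bin (1 to 5, from 5′ to 3′) in 3 gene length classes; right, percent of islands lower and higher in the mutant over the same bins for all genes of at least 20 kb. Each point is a set of 163 to 1095 islands, and the share of higher islands goes from 18.8% to 35.5%.

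Trp63, a gene of 208 kb, held islands in both directions. Its 12 islands lay between 25725001 and 25860800 on chromosome 16. At the low-coordinate end, 136 mutant and 146 WT reads gave a log2 ratio of -0.43 (-0.78 to -0.09), a lower island. In the middle stretch, 5 of 7 islands were called neither way, 1 was lower at -0.25 (157 and 149 reads, interval -0.59 to 0.08) and 1 higher at 0.39 (211 and 128). The 4 islands nearest the high-coordinate end were all higher. In order they had 269 and 168 reads (0.35), 507 and 274 (0.56), 510 and 303 (0.42), and 137 and 81 (0.43). The island of -0.25 had 0.06 relative to the median island, and the one of -0.43 was no longer called there. No strand is given for Trp63 in the promoter table used, so the islands are in coordinate order.

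**Figure D3:**
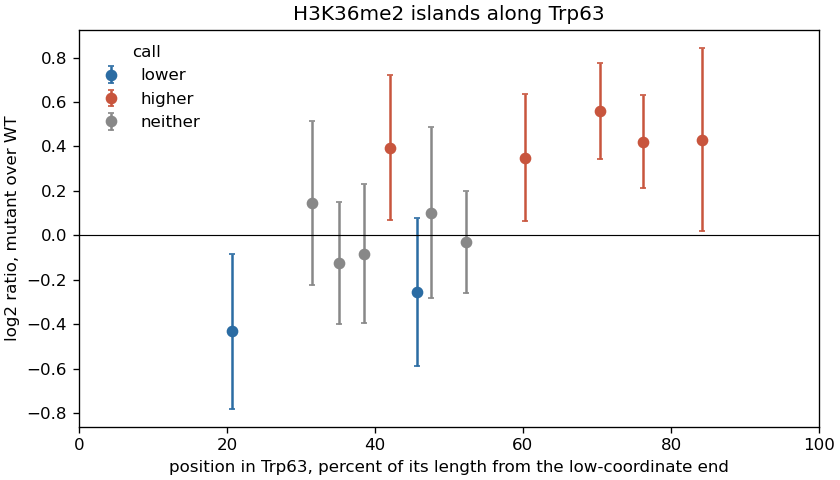
Log2 ratio of depth-scaled reads, mutant over WT (vertical axis), for the 12 islands along Trp63 by position from its low-coordinate end in percent of its length (horizontal axis), with exact binomial 95% intervals. The 4 islands nearest the high-coordinate end lie at 0.35 to 0.56 and the 1 nearest the low-coordinate end at -0.43.

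Cdh1, the gene of the junction protein E-cadherin, held 3 islands in its body on chromosome 8, all higher. They had 387 and 242 reads (0.35), 148 and 76 (0.63), and 260 and 147 (0.49). The island just outside its low-coordinate end had 164 and 197 reads and was lower (-0.59, -0.90 to -0.29). Islands in both directions, each with at least 100 reads, were found in 369 genes. The widest range was in Arhgap10, a GTPase activator, from -0.28 (217 mutant and 210 WT reads) to 1.51 (100 and 28). Arhgef28, a guanine nucleotide exchange factor, ranged from -1.20 (75 and 137 reads) at 54.3% of its length to 0.52 (188 and 104) at 93.2%. Hsf2, a heat shock transcription factor, had -0.61 (107 and 130) at 31.4% and 0.97 (168 and 68) at 76.4%. In Itprid2 islands at 53.7% and 58.5% of its length had -0.90 (60 and 89) and 0.89 (128 and 55). Mcc ranged from -0.79 to 0.81.

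Whole genes were lower or higher as well. Reads summed over islands in the body gave a log2 ratio for 729 genes with at least 3 islands and 500 reads, with a median of -0.09 and quartiles of -0.30 and 0.08, and 456 were under 0 and 273 over 0. The lowest was Atp10b, a phospholipid flippase, with 377 mutant and 558 WT reads (-0.90, -1.09 to -0.70) over 3 islands. Col28a1, a collagen, followed at -0.87 (489 and 712 reads) and Immp2l, a mitochondrial peptidase, at -0.86 (701 and 1014). Next were Malrd1 at -0.83, Cd96, a lymphocyte receptor, at -0.80, Samd12 at -0.79 and Ccdc192 at -0.77. These genes were 84.6 to 932 kb long, and in each but Immp2l, with 4 of 5, every island was lower.

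The highest was Dock1, an exchange factor for Rac, with 495 mutant and 238 WT reads (0.73, 0.50 to 0.96) over 3 islands. Erc1, a scaffold of secretion sites, had 654 and 318 reads (0.71), and Exoc6b, an exocyst subunit, 416 and 204 (0.70). Irf2, an interferon regulatory factor, stood at 0.56, and Ngly1, which removes N-glycans, at 0.55. Elp3, the catalytic Elongator subunit, had 0.54, Ercc6l2, a DNA repair translocase, 0.51 and E2f7, a repressor of cell cycle genes, 0.50. Every island of these 8 genes was higher. All genes named here kept their direction relative to the median island.

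Direction was shared over long distances. Between neighbouring islands up to 10 kb apart, the log2 ratios had a Pearson correlation of 0.66 over 4920 pairs, and 92.4% of the 3035 pairs called at both ends had 1 direction, against 60.8% of such pairs beyond 500 kb. The correlation was 0.46 at 10 to 50 kb, 0.26 at 50 to 100 kb, 0.14 at 100 to 500 kb and 0.001 beyond 500 kb over 1098 pairs. All pairs share the same pools, and these are descriptions. Runs of at least 10 consecutive lower islands numbered 183 and held 2906 islands, 37.4% of all lower ones. Higher islands formed 5 such runs with 120 islands, 5.37% of theirs, and 1009 of 1449 higher runs were single islands. Runs were built from the calls by depth, at which 60.2% of islands were lower and 17.3% higher. The more common call makes longer runs more easily, and runs were not built at other scalings.

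The longest lower runs covered whole gene neighbourhoods. On chromosome 7 from 88467601 to 96454800, 56 islands had 9526 mutant and 11688 WT reads (-0.63, -0.66 to -0.59). The stretch holds 25 genes, among them Fzd4, a WNT receptor, Eed, a Polycomb subunit, and Picalm, a clathrin adaptor. On chromosome 13 from 3668601 to 6667200, 54 islands had 13763 and 16136 reads (-0.56). It holds the calmodulin-like genes Calml3, Calm4 and Calm5, a group of Akr1c aldo-keto reductases and Klf6, and 1 of the 54 islands overlapped a gene body. A second stretch of that chromosome, from 107846801 to 112469400, had 50 lower islands (-0.58), of which 7 overlapped a gene body. Its 16 genes include Elovl7, a fatty acid elongase, Pde4d, a cAMP phosphodiesterase, and Plk2, a kinase. On chromosome 14 from 99234801 to 103505000 there were 41 lower islands (-0.53), of which 10 overlapped a gene body. The stretch holds 13 genes, among them Klf5 and Klf12, a pair of Krüppel-like factors. No island lay within 5 kb of Klf5.

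Of the 5 longest lower runs, the one with fewest genes lay beside Klf4, a transcription factor needed for the skin barrier. Its 48 islands on chromosome 4 from 55495601 to 56539600 held 10764 mutant and 13105 WT reads (-0.61, -0.65 to -0.58), and no other protein-coding gene lies there. Of the 48, 47 lay upstream of the Klf4 start site, out to 1002 kb, and 1 downstream. Their log2 ratios ran from -1.13 to -0.29, with 39 at -0.5 or less. The median level was 0.765 RPM per kb in WT and 0.498 in the mutant. No island lay within 5 kb of Klf4 itself, and the nearest had its centre 35.2 kb away. Within 1.5 Mb on either side, 55 of 58 islands were lower and 1 was higher.

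**Figure D4:**
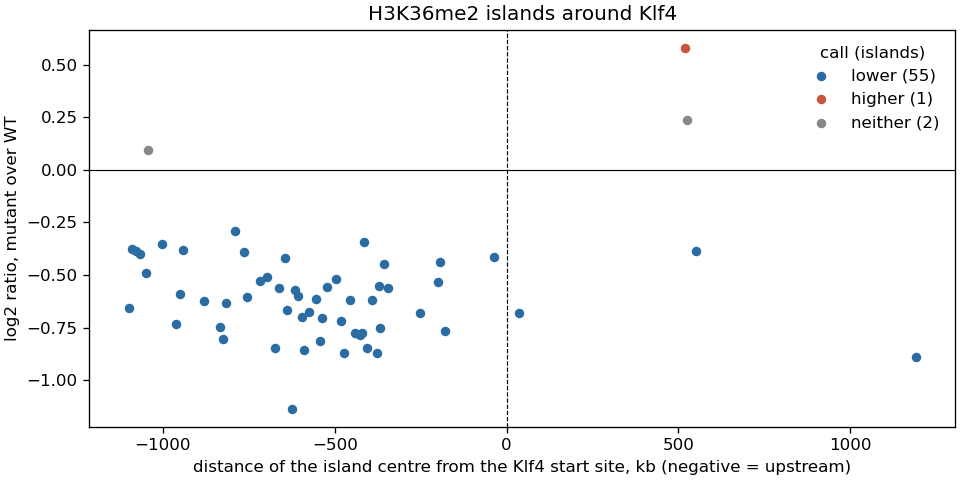
Log2 ratio, mutant over WT (vertical axis), of the 58 islands within 1.5 Mb of the Klf4 start site by distance of the island centre in kb (horizontal axis, negative upstream). The 55 lower islands lie mostly upstream, and the 1 higher island lies 520.1 kb downstream.

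The longest higher runs lay in repeated gene families. In the V region of the immunoglobulin heavy chain on chromosome 12, a run of 50 islands from 113585001 to 114747400 had 14627 mutant and 7502 WT reads (0.63, 0.59 to 0.67). Further runs there of 13 islands from 114803601 to 115173400 and 31 from 115181401 to 115695000 had 0.69 and 0.74. A run of 13 from 115781801 to 116227000 had 0.70 and reached the genes Zfp386, Vipr2 and Wdr60. On chromosome 4 from 60107801 to 61582000, 13 islands in the Mup cluster of major urinary protein genes had 4232 and 2032 reads (0.73). Copies of these families are alike, and the handling of reads that match several places is not stated, so the position of these reads, 37 bp long, is uncertain. Without these runs and those of the Speer4 cluster of chromosome 5, 2098 higher and 7772 lower islands were left. The spans left out were those of the higher runs themselves, so only higher islands could drop out.

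Cornified envelope genes and epidermal proteases were mostly on the lower side at both scalings. For each list, a gene was counted when an island lay in its body or within 5 kb, and the share among all 20665 protein-coding genes was 12.9% for lower and 7.54% for higher islands. Counts relative to the median island follow in brackets, lower first, and among all genes these were 934 and 2468. The value beside a gene named from a list is that of 1 called island, picked by the size of its ratio. That island may lie in the 5 kb flank and does not stand for the whole gene. Of 44 cornified envelope and epidermal differentiation complex genes, 12 had a lower and 1 a higher island (7 and 2 relative to the median island). Sprr1a stood at -1.04, Crnn, the cornulin gene, had 297 mutant and 411 WT reads (-0.80), and Sprr4 107 and 139 (-0.71). These genes share a cluster on chromosome 3, where 33 lower islands in a row from 92010201 to 93582800 had 5070 and 6325 reads (-0.65), so they are not separate observations. Of 30 epidermal proteases and inhibitors, 12 had a lower and 1 a higher island (6 and 2). Besides Klk5, Spink5, the inhibitor of kallikreins that is lost in Netherton syndrome, had 93 and 149 reads (-1.01), and Tmprss11e, a membrane serine protease, 103 and 155 (-0.92). Of 29 skin lipid and sebaceous genes, 9 had a lower and 3 a higher island (5 and 7, the reverse order). Cers3, a ceramide synthase, was at 0.76, and Elovl6, a fatty acid elongase, and Smpd1, a sphingomyelinase, were both at -0.73.

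Counted within 5 kb, adhesion genes, keratins and transcription factors had more members with a lower island by depth and more with a higher one relative to the median island, as did all protein-coding genes. In the gene body alone, by depth, 7 adhesion genes had a lower and 9 a higher island. Keratins had 1 and 1 there, transcription factors 10 and 6, and all protein-coding genes 1881 and 1363. Of 35 desmosome, junction and basement membrane genes, 16 had a lower and 9 a higher island (5 and 13). Pkp1, a desmosomal plaque gene, had 86 mutant and 122 WT reads (-0.83), Cldn1, a tight junction gene, 157 and 210 (-0.75), and Lamb3, a laminin chain gene, 101 and 47 (0.77). The island over the Cldn1 start site had 301 and 209 reads (0.20) and was called neither way. Of 40 epidermal transcription factors, 17 had a lower and 7 a higher island (3 and 10), with 6 counted in both. Rora, a nuclear receptor gene, had -0.90 (98 and 145), Prdm1, which encodes BLIMP1, -0.67 (91 and 115), and Ets1 -0.59 (188 and 225). Hair follicle and gland stem cell regulators had more genes with a higher island, with 8 of 32 lower and 11 higher, all 8 of the former also with a higher island (1 and 13). Counted by islands the order was the reverse, with 24 of their 73 islands lower and 20 higher, and a median log2 ratio of -0.05. Tcf7l2, a WNT effector gene, had 128 and 55 reads (0.89), and the nuclear factor I genes Nfix and Nfib had 0.79 (159 and 73) and 0.78 (231 and 107). Of 15 epidermal keratins, 3 had a lower and 2 a higher island (0 and 4). Krt15 had -0.41 (209 and 221), Krt80 -0.32 (174 and 173) and Krt5 0.35 (106 and 66). The islands given for Pkp1, Cldn1, Prdm1, Nfix, Krt15, Krt80 and Krt5 lay in the flank, outside the gene body.

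Growth and carcinoma genes stood on both sides. Of 45 growth factor receptors, ligands and squamous carcinoma genes, 12 had a lower and 10 a higher island (4 and 17), with 7 in both. Ereg, an EGFR ligand gene, had 79 mutant and 137 WT reads (-1.12), Fgfr2, a growth factor receptor gene, 142 and 68 (0.73), and Rb1, the retinoblastoma tumour suppressor, 144 and 69 (0.73). Of 20 EMT and mesenchymal regulators, 4 had a lower and 0 a higher island (1 and 2), with Tgfb2 at -0.79, Tnc, a matrix protein gene, at -0.46 and Mmp14, a matrix protease gene, at -0.43. Of 26 simple and glandular epithelium genes, 2 had a lower and 0 a higher island (1 and 0), namely Prlr, the prolactin receptor, at -0.71 and Ehf at -0.26, which was 0.05 relative to the median island. Of 30 constitutively transcribed genes, 5 had a lower and 1 a higher island (2 and 3), with B2m at -0.86, Eef1a1, a translation factor, at -0.50 and Rpl13a, a ribosomal protein gene, at 0.59. The islands given for Ereg, Tgfb2, Eef1a1 and Rpl13a lay in the flank, outside the gene body. Of 33 very long genes, 16 had a lower and 6 a higher island (14 and 7). The lowest islands were in Immp2l at -1.28 (121 and 233 reads), Ptprn2 at -1.27 (108 and 207) and Fhit at -1.18 (177 and 319).

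**Figure D5:**
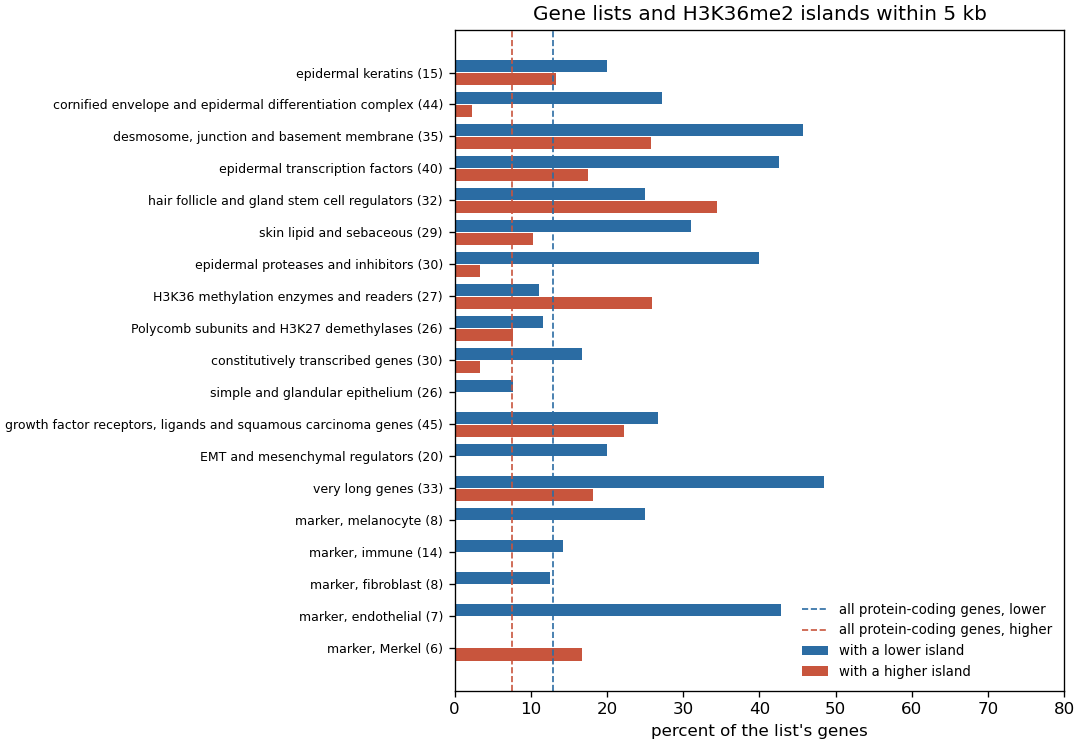
Percent of the genes of each list (number of genes in brackets) with a lower island (blue) or a higher island (red) within 5 kb; dashed lines give the shares of all 20665 protein-coding genes, 12.9% and 7.54%. Proteases and cornified envelope genes have long lower and short higher bars, while stem cell regulators and H3K36 enzymes have longer higher bars.

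The genes of the H3K36 machinery itself were more often higher. Of 27 writers, erasers and readers, 3 had a lower and 7 a higher island, with 0 in both (2 and 9). The reader genes Hdgfl2 and Zmynd11 had 146 mutant and 66 WT reads (0.82) and 148 and 71 (0.73), and Kdm2a, an H3K36me2 demethylase gene, 129 and 63 (0.70). Among the writers, Nsd2 had 1 higher island with 109 and 59 reads (0.56, 0.09 to 1.04) and 1 called neither way. The islands of Nsd1 (142 and 123 reads, -0.12) and Ash1l (164 and 109, 0.26) were not called, and Setd2 had none. These values concern the mark on the genes, not their expression. Of 26 Polycomb subunits and H3K27 demethylases, 3 had a lower and 2 a higher island (1 and 4). Pcgf5 stood at -0.73, Phc3 had 1 island at -0.53, and Ezh2, the H3K27 methyltransferase gene, stood at 0.50 (210 and 118 reads).

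Marker genes of other cell types in a skin suspension held islands at 3 of 8 melanocyte, 2 of 14 immune, 1 of 8 fibroblast, 4 of 7 endothelial and 1 of 6 Merkel cell genes, against 21.7% of all protein-coding genes. Lower islands were found at 2 of 8 melanocyte, 2 of 14 immune, 1 of 8 fibroblast, 3 of 7 endothelial and 0 of 6 Merkel cell genes, and higher ones at 0 genes of the first 4 lists and at 1 Merkel gene. Relative to the median island these were 0, 2, 0, 2 and 0 lower and 1, 0, 0, 1 and 1 higher. The islands included those at Dct (-0.34) and Mitf (-0.33) for melanocytes, Itgam (-0.68) among immune genes, and Fbln1 (-0.43) for fibroblasts. Those of endothelium were at Tek (-0.65), Pecam1 (-0.64) and Vwf (-0.49). The Merkel gene was Rest (0.77), a repressor that many cells express. Their part in the differences was not tested.

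Gene families are set beside all protein-coding genes, of which 12.9% had a lower and 7.54% a higher island (934 and 2468 genes relative to the median island). Collagens lay close to these shares, with 11.9% and 9.52%. Solute carriers had 16.6% and 6.63%, zinc finger genes 7.95% and 8.19%, and ADAM and ADAMTS genes 8.62% and 5.17%. Of 62 serpins, 19 had a lower and 1 a higher island (11 and 3 relative to the median island), with Serpinb12 at -0.91 (101 mutant and 151 WT reads). Of 56 Cyp2 genes 6 were lower and 0 higher (5 and 1), with Cyp2b19, an epidermal cytochrome, at -0.88 (472 and 692), and of 42 beta-defensins 3 and 0 (3 and 0), with Defb14 at -0.77. Of 362 solute carriers 60 were lower and 24 higher (24 and 46), with Slc13a4 at -1.06, and of 415 zinc finger genes 33 and 34 (11 and 52), with Zfp367 at 0.86. The 22 Ugt genes had 10 lower and 0 higher (1 and 9), since overlapping Ugt1a genes share islands, such as the 1 at -0.28 in Ugt1a6b and Ugt1a7c that had 0.03 relative to the median. Counts of lower and higher were 5 and 4 of 42 collagens (2 and 5), 4 and 1 of 23 cadherins (2 and 1), 5 and 3 of 58 ADAM and ADAMTS genes (2 and 4), 6 and 0 of 92 potassium channels (1 and 3) and 1 and 3 of 39 Hox genes (0 and 6). Families with few islands were olfactory receptors, with 5 and 1 of 1104 (2 and 1), vomeronasal receptors, with 3 and 4 of 354 (1 and 9), and keratin-associated proteins, with 2 and 0 of 56 (2 and 0). The 3 Hox genes counted as higher share 1 island at 0.30 (-0.06 to 0.67), and the 2 keratin-associated genes share 1 at -0.69.

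Krt14 had 1 island, on chromosome 11 from 100207401 to 100208000. This island overlaps the annotated gene and lies 1.37 kb from the start site used. It had 57 mutant and 16 WT reads, 2.83-fold higher (log2 interval 0.68 to 2.40), with 0.563 RPM per kb in WT and 1.60 in the mutant. The mutant mice carry a Krt14-Cre construct with Krt14 promoter sequence, whose origin is not given in the labels. Reads from added copies and a change at the gene itself cannot be told apart. The Krt5 island, 4.5 kb from the start site, had an interval that includes 0 (-0.10 to 0.82), although the authors' deposited table gives it an FDR of 0.0385. Wnt2, a WNT ligand gene, had the lowest island of all, 11 and 48 reads over 400 bp at 30.2 kb from the start site (-2.46, -3.55 to -1.49).

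DiffBind, which weighs the spread between the 3 animals a side, called 0 of 18072 windows at an FDR of 0.05, and none had an FDR below 0.139 in the authors' deposited table. At an unadjusted p under 0.05, 507 windows were lower (2.81% of those tested) and 223 higher (1.23%), and they are given as descriptions. Together they are 730 windows, a smaller share of the 18072 than the 0.05 that such a cut-off would pass if no window differed. Gene bodies held a larger share of the higher than of the lower windows: 185 of the 507 lower windows (36.5%) and 144 of the 223 higher ones (64.6%) overlapped a gene body. Of the islands, 3154 of 7772 lower and 1802 of 2235 higher ones did. Only these 730 windows are listed, and 18072 is the number of tests that the lowest p and its FDR imply. The share in gene bodies among all tested windows was therefore not computed. Islands held 196 of the lower and 15 of the higher windows, and in 209 of these 211 the window and the island had the same sign, though both come from the same libraries. Windows outside islands had low means, with medians of 3.64 mutant and 9.91 WT normalised reads among the 311 lower and 8.13 and 2.61 among the 208 higher. Higher windows lay nearer to start sites, with a median of 27.6 kb to the nearest against 56.0 kb for lower ones.

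The window with the lowest p in the authors' deposited table (7.71e-06) lay on chromosome 8 inside a lower island of -1.22 and near no gene, with means of 1.22 mutant and 18.2 WT reads. By that p, the first 8 lower windows met 3 genes within 5 kb. These were Lrmda with means of 1.51 in the mutant and 10.04 in WT (the authors' deposited table has p = 0.00123), and Cngb1, a photoreceptor channel subunit gene, with its neighbour Tepp at 2.60 and 9.78. The 8 higher ones met 7 genes. Prdm16, a regulator of brown fat and stem cells, had means of 9.31 and 1.78, for which the authors' deposited table has p = 0.00315. Ryr1, a calcium release channel gene, had 8.70 and 1.92, Rcsd1 9.11 and 1.82, and Wnt11, a WNT ligand gene, 10.9 and 3.11. Xkr6 had 12.1 and 4.18, Ano1, a chloride channel gene, 9.92 and 2.33, and Otp 3.38 against a WT mean at the floor of 1 read.

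H3K27me3 windows of the series overlapped few islands. Of 7772 lower islands, 267 (3.44%) overlapped a window with higher H3K27me3 in the mutant and 1 a window with lower H3K27me3. Of 2235 higher islands 2 (0.0895%) and 1 did, and of 2901 uncalled islands 17 and 4. The DiffBind windows were less one-sided, since 88 lower H3K36me2 windows overlapped a higher and 38 a lower H3K27me3 window, while 11 and 77 higher ones did. The autosomal H3K27me3 windows listed by the authors were 1539 higher and 2718 lower ones.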

How the data were processed

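CUT&RUN libraries of single-cell suspensions were read as 37 bp pairs, per the labels' protocols. Bowtie2, DiffBind, DESeq2, SICER and GRCm38 (mm10) are named in the submitters' processing notes, without versions. The authors' island table holds raw read counts per island in 1 pooled column a genotype and the same reads as deposited RPM, scaled to pool depth. It also holds the authors' fold ratio and, per direction, a deposited p-value and FDR. The authors' DiffBind table holds log2 genotype means of normalised reads. How libraries were merged, duplicates, control libraries and spike-in are not stated. Without a spike-in, a general loss cannot be seen.

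Log2 ratios were recomputed from depth-scaled counts, with exact binomial 95% intervals, in Python 3.11.15, pandas 2.3.3, numpy 2.4.6 and scipy 1.17.1, and drawn with matplotlib 3.10.9. The deposited island p is a one-sided Poisson test that takes the scaled count of the other pool as known. Rebuilding it gave 0 calls that differ, and other scalings used the same form. The form was also run on simulated pools at the depth ratio of the data and without spread between animals. The simulation held no other scaling. This Poisson test ignores the counting error of the other pool and the spread between animals.

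Named genes were the 8 highest and 8 lowest of genes with at least 3 islands and 500 reads, and the 6 with the largest range in both directions. They also took in genes within 5 kb of the first 8 windows by p, up to 3 of each list with at least 100 reads, genes of the 5 longest runs, and Krt14, Krt5, Trp63, Nsd1, Nsd2, Setd2 and Ash1l. Cdh1 as a gene track, Wnt2, Klf4 and genes of further runs were singled out after their values were seen. Some genes and 1 gene family that these rules name are not reported here. The comparison and lists were chosen with earlier results of these data known. Promoters come from RefSeq for GRCm38.p6.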

Additional observations from a re-analysis of the deposited data

How the results depend on the processing

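The balance of lower and higher islands depended on scaling. At a median log2 ratio of 0 there were 3162 lower and 4579 higher islands, so that 40.8% of called islands were lower, and scaled to summed island reads 4720 and 3936 (54.5%). The exact binomial test of the pools kept 6300 lower and 1348 higher, and a log2 ratio at or past 0.5 left 3843 and 877. The summed log2 ratio was -0.24 without the densest 0.5% of islands. It was -0.24 without the 137 islands of the IgH V, Mup and Speer4 clusters, which were taken from higher runs and were all called higher. With at least 50% of an island inside the gene, gene bodies had a median of -0.098 and the rest -0.46. At p under 0.01 in the authors' deposited table, 95 windows were lower and 21 higher. At the median scaling, 934 genes had a lower and 2468 a higher island, and the cause of these shifts is the scaling itself. Of 107 named islands, 15 kept their sign there but were no longer called, and 4 changed sign and were called in neither direction. The 4 were Ehf at 0.052, Trp63 from 25777001 at 0.061, and Ugt1a6b and Ugt1a7c, which share an island, at 0.035. Of the 107, 94 passed the binomial test. Leaving out the clusters and restricting the gene position to islands of 1 gene, to 100 reads or without the densest islands were chosen after seeing the data. No paired analysis was possible because the tables hold genotype pools or means and no column per library, so no library could be left out either. Depth limits islands of under 100 reads, whose intervals are wide.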

Other observations

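Islands off the autosomes, which enter no comparison, were 57 on chromosome X with a median log2 ratio of 0.11, 442 on chromosome Y with 0.10 and 2 on chromosome M with 0.39.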
